A study of Mus musculus with 48 samples.

Results

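Genes of the integrated stress response and of amino acid supply were followed in a mouse melanoma cell line exposed to cytokines. The 45 genes were taken by symbol from a list of ATF4 pathway genes, enzymes of amino acid and one-carbon synthesis, amino acid transporters and cytosolic tRNA synthetases. All 45 had a row of their own among the 49671 genes of the count table, and all 45 were among the 12203 genes that passed the filter on low counts. By role there were 7 transcription regulators, 7 brakes and effectors of the response, 12 synthesis enzymes, 7 transporters and 12 synthetases. The lowest of them, Pycr1, had 20 to 60 reads per library.

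RNA came from NMM, a line described as NRAS-mutated mouse melanoma, grown in vitro, and poly(A) RNA was sequenced from 48 bulk libraries. Cells received IFNγ at 100 ng/ml together with TNF at 10 ng/ml (called the combination below), IFNγ alone at 100, 1 or 0.01 ng/ml, TNF alone at 10, 1 or 0.1 ng/ml, IFNα1 at 5000 U/ml, LTα1β2 at 2 ng/ml, TGF-β at 10 ng/ml or IL-2 at 6000 U/ml, or were left unstimulated. Each of the 12 groups had 1 library at each of 2, 6, 12 and 24 h of continuous stimulation, so a group's 4 libraries differ in duration and replicate nothing exactly. All groups share this 1 cell line, and the labels do not say whether libraries came from separate cultures, so the p-values measure the spread between these libraries.

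Library totals lay between 5612907 and 9663207 counts. Of the melanocyte genes examined, Mitf was at 3.52 to 12.8 CPM in all 48 libraries, whereas Sox10, Tyr and Tyrp1 were at 0 in 46 of 48 libraries and Dct and Mlana were at 0 in all 48, so the pigment cell markers of a melanoma line were for the most part absent. The 8 markers of T and NK cells summed to at most 0.394 CPM in any library, and Cd3e and Cd8a were at 0 in all 48. The 6 fibroblast markers, most of whose signal was Dcn, Pdgfrb and Pdgfra, summed to 34.2 to 52.1 CPM in the combination libraries. In the unstimulated libraries they summed to 41.7 to 49.5 CPM. Lum, Col1a1 and Col1a2 were each at most 2.02 CPM in any library. The 5 endothelial markers summed to 4.93 to 14.6 CPM in the combination libraries and 3.82 to 6.74 CPM in the unstimulated libraries. Nearly all of this signal was Cdh5 (2.59 to 26.2 CPM over the 48 libraries). Pecam1, Kdr, Tek and Vwf were each at most 0.575 CPM in any library. The 7 macrophage markers, most of whose signal was Cd14, summed to 26.6 to 53.7 CPM in the combination libraries and 49.8 to 56.3 CPM in the unstimulated libraries. Adgre1 and C1qa were at 0 in all 48 libraries, and Csf1r, Lyz2 and C1qb were each at most 0.537 CPM in any library. The part of these marker genes in the results was not tested, and fewer cells of a type and less RNA per cell cannot be told apart in bulk samples.

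As background, the integrated stress response begins when a stress-sensing kinase phosphorylates the translation factor eIF2. General translation then slows while the mRNA of the transcription factor ATF4 is translated more. ATF4, with C/EBP family partners, switches on genes that import and make amino acids and that charge tRNAs, and a phosphatase subunit encoded by Ppp1r15a brings the response back down. IFNγ is known to deplete tryptophan in many cell types, and the tryptophanyl-tRNA synthetase gene Wars is a known interferon target in its own right.

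ATF4 dimers bind a composite site called the C/EBP-ATF response element, searched here as TGATGNAA on both strands within 250 bases before each start. RefSeq promoter entries (GRCm38.p6) were found for 37 of the 45 genes, one of them, Mars, through the synonym that RefSeq uses, and not for Eif4ebp1, Cth, Slc7a5, Slc1a5, Wars, Nars, Cars and Lars. The letters occurred before 10 of the 37 genes (27.03%), against 3.91% of the 27025 genes with an entry. The list was drawn up with ATF4 pathway genes, so its share is not independent of that choice, and the difference was not tested. The 10 genes were Chac1, Asns, Gars, Nupr1, Aars, Pycr1, Jdp2, Tars, Vldlr and Got1. The stretches below come from the 5 of these 10 whose surroundings overlap no annotated exon. Of the 5, 3 rose in the combination (Chac1, Jdp2 and Gars) and 2 were not called (Pycr1 and Got1). The remaining genes of the 10 rose as well, as did 36 of all 45, where 20.9% of all tested genes were called higher. Whether the match goes with the rise was not tested. Capitals mark the match, which reads TTGCATCA or TTTCATCA where the site lies on the other strand.
Chac1: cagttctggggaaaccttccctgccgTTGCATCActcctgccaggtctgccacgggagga
Jdp2: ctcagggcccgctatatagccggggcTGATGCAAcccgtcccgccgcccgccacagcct
Gars: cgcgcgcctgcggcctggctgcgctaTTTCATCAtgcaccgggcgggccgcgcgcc
Pycr1: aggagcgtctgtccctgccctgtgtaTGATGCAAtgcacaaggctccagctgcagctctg
Got1: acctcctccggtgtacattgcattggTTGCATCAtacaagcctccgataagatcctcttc
The Chac1 stretch lies on the plus strand at chr2:119351023-119351082, with the match 193 to 186 bases before the start. The Jdp2 stretch is at chr12:85599357-85599415 on the plus strand, with the match 33 to 26 bases before the start. The counted Jdp2 gene begins upstream of this stretch, at 85599105, so the start meant is a RefSeq start inside that gene. The Gars stretch is at chr6:55037945-55038000 on the plus strand, with the match 30 to 23 bases before the start. On the minus strand lie the Pycr1 stretch at chr11:120643818-120643877, with the match 103 to 96 bases before the start, and the Got1 stretch at chr19:43524674-43524733, with the match 102 to 95 bases before the start. A match of letters describes the sequence and is not evidence of binding. The interferon-related motif TTCNNNGAA (the GAS element) lay before 5 of the 37 genes (13.5%), against 8.13% of all genes, and the core of the ISRE (GAAA, any 2 bases and GAAA again, on both strands) lay before 1 of them, Ppp1r15a (2.70%), against 3.46% of all genes. TTCNNNGAA reads the same on both strands, and in Aars and Nupr1 it lay near the C/EBP-ATF match without overlapping it.

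The combination of IFNγ and TNF was associated with a broad rise of these genes. Their share of all counts was 0.701%, 0.742%, 0.948% and 0.972% at 2, 6, 12 and 24 h in combination libraries, against 0.702%, 0.675%, 0.705% and 0.684% in unstimulated libraries. Averaged over the 4 durations, 36 of the 45 genes were higher in the combination than in unstimulated cells and none was lower, at an adjusted p under 0.05 (edgeR quasi-likelihood test, Benjamini-Hochberg over all genes tested). In the same comparison 42% of all tested genes were called, 20.9% higher and 21.2% lower. The median log2 change was 0.45 over the 45 genes and -0.03 over all 12203. The 45 genes were chosen with earlier results of these data known. Their distance from all tested genes, here and below, is therefore not independent of that choice and was not tested. The remaining 9 genes, which did not pass, were Ddit4, Stc2, Eif4ebp1, Mthfd1l, Pycr1, Got1, Phgdh, Slc1a4 and Slc38a2. By duration, the median log2 ratio of the 45 genes in the combination over unstimulated cells was 0.06, 0.28, 0.60 and 0.67 at 2, 6, 12 and 24 h, and 29, 35, 43 and 41 of the 45 lay above 0. The share of mitochondrially encoded reads moved as well, being 1.27%, 0.959%, 0.616% and 0.513% in combination libraries and 1.17%, 1.199%, 0.786% and 0.964% in unstimulated libraries, and its part in the result was not tested.

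**Figure D1:**
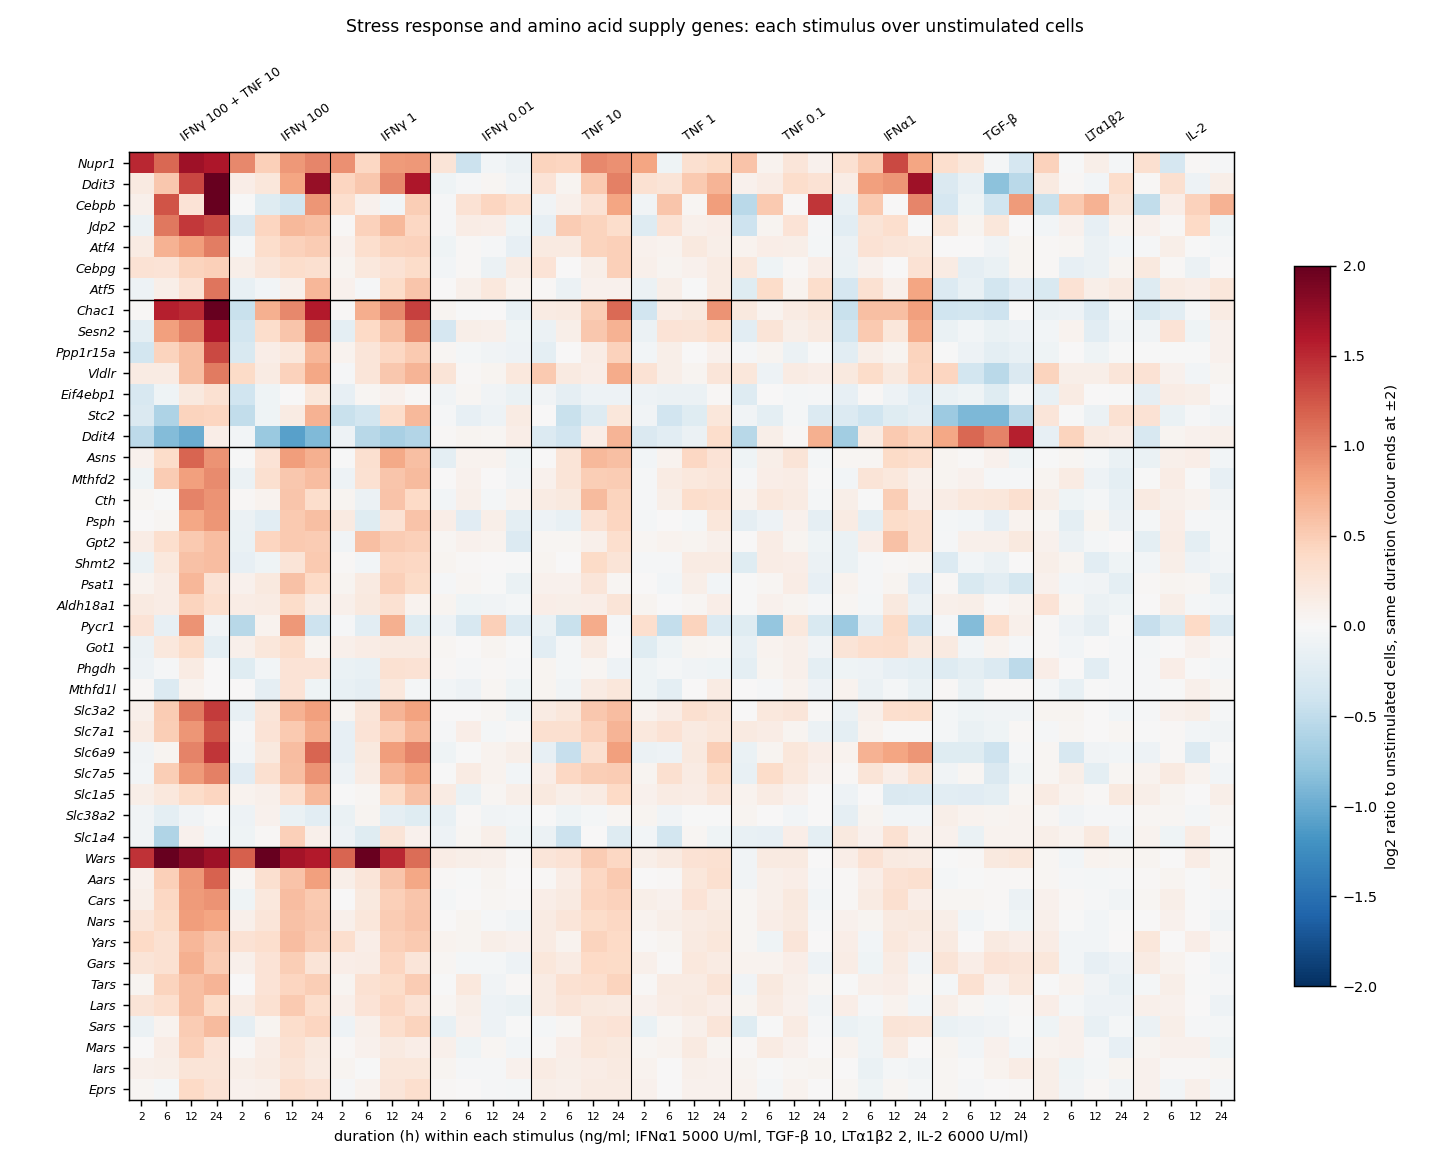
Heat map of log2 ratios of each stimulated library to the unstimulated library of the same duration (log2 CPM with a prior count of 2), 1 column per library, 45 genes in rows ordered by role and by change in the combination. Red is higher than in unstimulated cells and the colours end at ±2. The combination block is palest at 2 h, where the median ratio was 0.06, and darkest at 24 h, where it was 0.67.

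**Figure D2:**
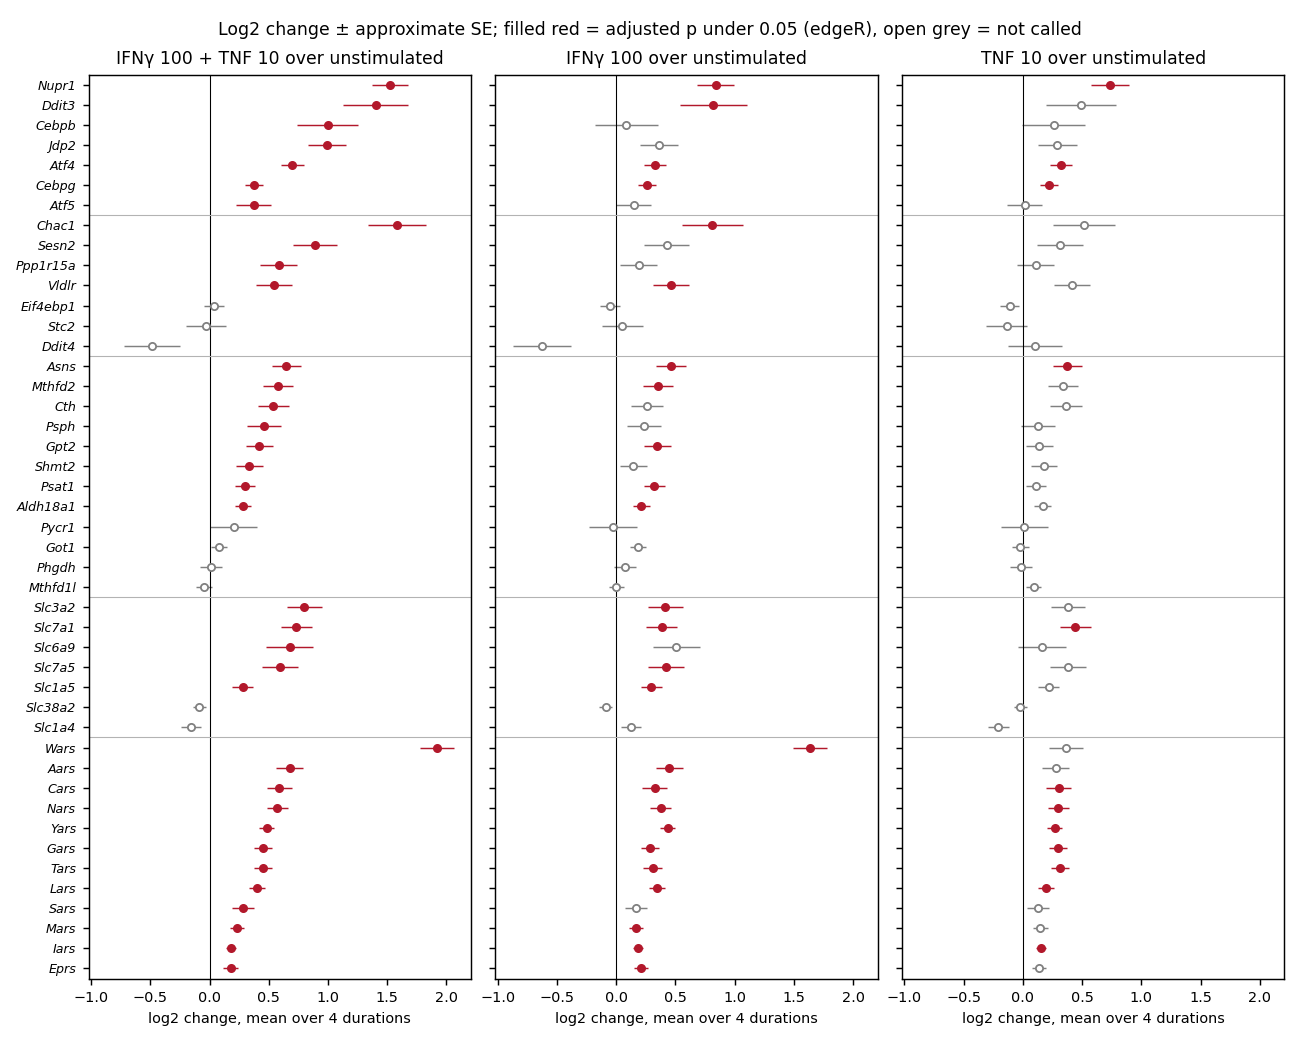
Log2 change of each of the 45 genes over unstimulated cells as a mean over 4 durations, with approximate standard errors as bars, for the combination, IFNγ at 100 ng/ml and TNF at 10 ng/ml. Filled red points passed an adjusted p under 0.05 (edgeR), 36, 26 and 12 of the 45 genes in the 3 panels, and open grey points did not. Rows are grouped by role from transcription regulators at the top to tRNA synthetases at the bottom.

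All 7 transcription regulators rose in the combination (median log2 change 0.99). Atf4 itself had 347, 436, 566 and 626 CPM at 2, 6, 12 and 24 h in combination libraries, against 310, 269, 318 and 307 CPM in unstimulated libraries. Every combination library lay above every unstimulated one, with the smallest gap at 2 h, and the mean log2 change was 0.70 ± 0.10 (approximate SE, adjusted p = 1.84e-07). Nupr1, a small stress-induced chromatin-associated protein, had 41.8, 31.1, 74.7 and 110.4 CPM in combination libraries, against 14.5, 13.8, 22.99 and 35.6 CPM in unstimulated libraries. It was therefore already higher at 2 h, and its log2 change was 1.52 ± 0.15 (adjusted p = 1.91e-10). Ddit3, which encodes the pro-death factor CHOP, had 15.5, 22.5, 64.5 and 109.3 CPM in combination libraries, against 13.6, 15.3, 25.4 and 17.4 CPM in unstimulated libraries. The 2 libraries at 2 h were close and the gap opened with time, with a log2 change of 1.40 ± 0.28 (adjusted p = 1.10e-04). Ddit3 and the synthetase gene Mars overlap at their ends on chromosome 10 (127290774 to 127296288 and 127296221 to 127311786), so some reads of one may be counted in the other.

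The AP-1 repressor Jdp2 rose by 0.99 ± 0.16 on the log2 scale, with 16.7, 30.3, 41.2 and 40.99 CPM in combination libraries, against 18.1, 14.4, 15.3 and 16.3 CPM in unstimulated libraries. Cebpb, a C/EBP factor that also responds to cytokines, rose by 1.00 ± 0.26 (adjusted p = 0.00207), with 35.3, 55.2, 46.6 and 100.3 CPM in combination libraries and 32.7, 22.8, 38.4 and 23.8 CPM in unstimulated libraries. Stimuli with few or no called genes gave higher 24 h levels of Cebpb than the unstimulated library, 38.6 CPM with IL-2 and 64.8 CPM with TNF at 0.1 ng/ml, and the Cebpb call was lost without the 24 h libraries. Cebpg, the C/EBP partner of ATF4, rose by 0.37 ± 0.08, and Atf5, a factor translated by the same route as ATF4, rose by 0.37 ± 0.14 (adjusted p = 0.0370), a call lost in 7 of 12 alternative settings.

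**Figure D3:**
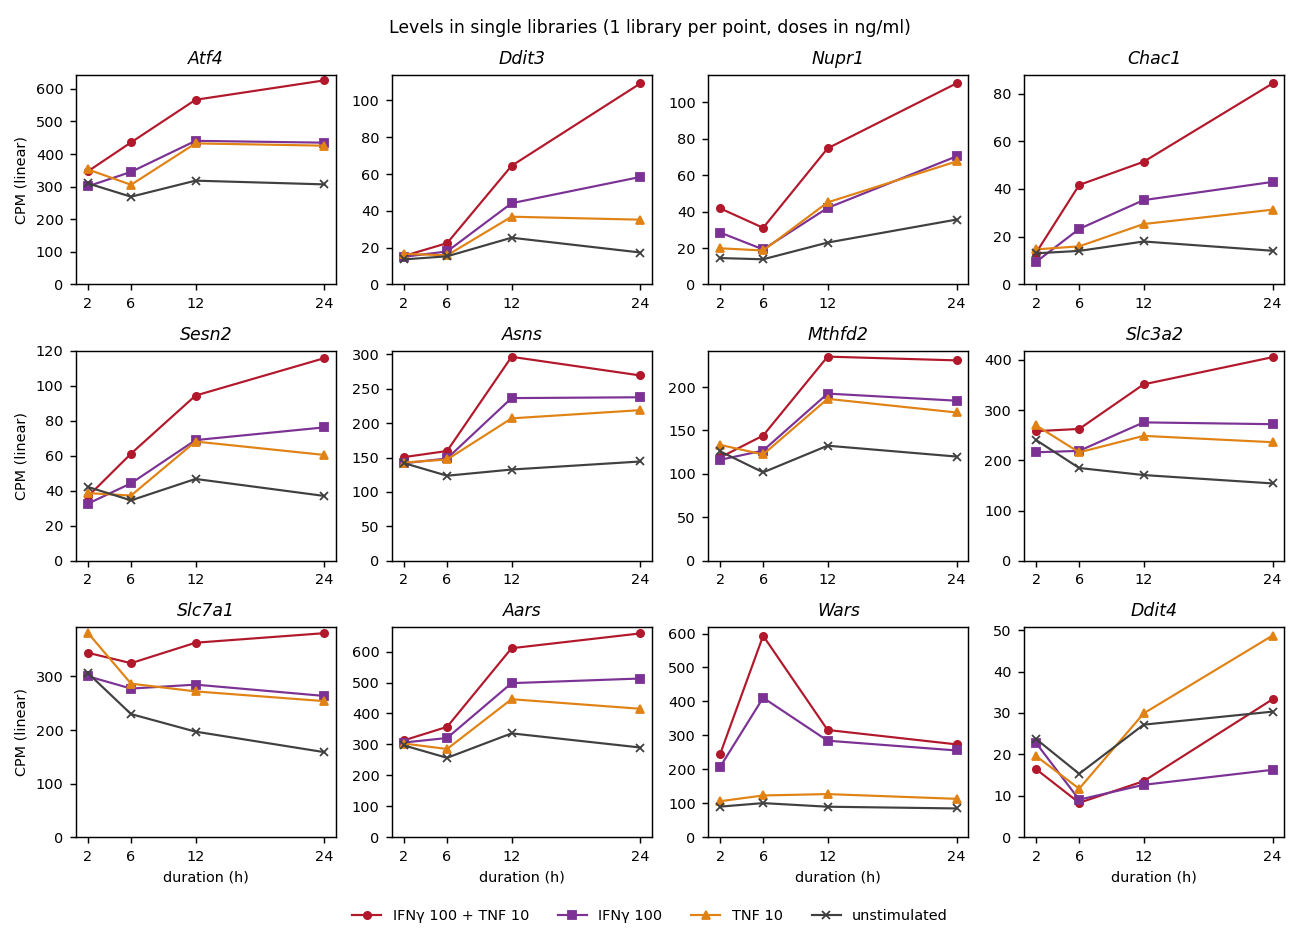
CPM in single libraries (linear axis from 0) against hours of stimulation for 12 genes in the combination, IFNγ at 100 ng/ml, TNF at 10 ng/ml and unstimulated cells, 1 library per point. Ddit3 and Chac1 start together at 2 h and end at 109.3 and 84.2 CPM in the combination at 24 h, while Wars peaks at 593 CPM at 6 h.

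Among the brakes and effectors, 4 of 7 rose in the combination (median log2 change 0.54). Chac1, an enzyme that degrades glutathione, had 13.3, 41.7, 51.4 and 84.2 CPM in combination libraries, against 13.1, 14.1, 18.01 and 14.1 CPM in unstimulated libraries. It was level at 2 h and apart from 6 h on, with a log2 change of 1.58 ± 0.25 (adjusted p = 2.86e-06). Sesn2, an inhibitor of the growth kinase mTORC1, had 36.8, 61.3, 94.4 and 115.8 CPM in combination libraries, against 42.2, 34.5, 46.8 and 37.1 CPM in unstimulated libraries, a log2 change of 0.89 ± 0.19 (adjusted p = 2.21e-04). At 2 h the combination library was the lower one. Ppp1r15a rose by 0.58 ± 0.15 and Vldlr, a lipoprotein receptor, by 0.54 ± 0.15.

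Ddit4, a second mTORC1 inhibitor, had 16.4, 8.29, 13.5 and 33.3 CPM in combination libraries, against 23.7, 15.3, 27.2 and 30.3 CPM in unstimulated libraries, so it was the lower one at 2, 6 and 12 h and not at 24 h. Its log2 change of -0.48 ± 0.24 did not pass the test (adjusted p = 0.0988). The translation repressor gene Eif4ebp1 (0.04 ± 0.08) and the secreted glycoprotein gene Stc2 (-0.03 ± 0.17) did not pass either.

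Of the 12 synthesis enzymes, 8 rose in the combination (median log2 change 0.32). Asns, asparagine synthetase, had 150.7, 159.6, 296.5 and 269.3 CPM in combination libraries, against 141.9, 123.6, 132.6 and 144.3 CPM in unstimulated libraries. The 12 and 24 h combination libraries stood far above all others of the pair, and the log2 change was 0.65 ± 0.12 (adjusted p = 6.52e-05). Mthfd2, a mitochondrial folate enzyme, had 119.0, 144.2, 235.0 and 230.7 CPM in combination libraries, against 126.0, 101.8, 132.5 and 120.0 CPM in unstimulated libraries, a log2 change of 0.58 ± 0.13 (adjusted p = 3.77e-04). In serine synthesis the 2 later enzymes rose, Psph by 0.46 ± 0.14 and Psat1 by 0.30 ± 0.09. Phgdh, the entry enzyme, was at 0.01 ± 0.09 and did not pass, and the difference between them was not tested. In folate metabolism Shmt2 rose by 0.34 ± 0.11, whereas Mthfd1l was at -0.05 ± 0.07. For proline, Aldh18a1 rose by 0.28 ± 0.07, and Pycr1, at 3.70 to 7.14 CPM in these 8 libraries, was at 0.20 ± 0.20. Cth, which makes cysteine, rose by 0.54 ± 0.13 and the alanine aminotransferase gene Gpt2 by 0.42 ± 0.11, while the aspartate aminotransferase gene Got1 was at 0.08 ± 0.07.

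Of the 7 transporters, 5 rose in the combination (median log2 change 0.60). Slc3a2, the heavy chain shared by several exchangers, had 257.9, 262.3, 351.0 and 405.1 CPM in combination libraries, against 240.1, 184.6, 170.6 and 153.9 CPM in unstimulated libraries, a log2 change of 0.80 ± 0.15 (adjusted p = 3.71e-05). Slc7a1, which imports arginine and lysine, had 344.1, 324.8, 363.0 and 380.9 CPM in combination libraries, against 306.0, 229.7, 197.0 and 158.6 CPM in unstimulated libraries, a log2 change of 0.73 ± 0.13 (adjusted p = 2.13e-05). For both genes the unstimulated level declined from 2 to 24 h, while the combination level did not, so the widening ratio held a decline in unstimulated cells as well as, for Slc3a2, a climb in stimulated ones. Slc7a5, the leucine carrier that pairs with Slc3a2, rose by 0.60 ± 0.15, the glycine transporter Slc6a9 by 0.68 ± 0.20 and the glutamine transporter Slc1a5 by 0.28 ± 0.09. The neutral amino acid carriers Slc38a2 (-0.08 ± 0.05) and Slc1a4 (-0.16 ± 0.09) did not pass.

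All 12 cytosolic tRNA synthetases rose in the combination (median log2 change 0.45), in a range from 0.18 for Eprs and Iars to 1.92 for Wars. Wars had 244.7, 593.4, 315.8 and 273.4 CPM in combination libraries, against 89.8, 100.2, 89.6 and 84.5 CPM in unstimulated libraries. Every combination library lay above every unstimulated one, with the peak at 6 h, and the log2 change was 1.92 ± 0.14 (adjusted p = 2.82e-13). Aars, for alanine, had 313.1, 356.6, 610.9 and 658.9 CPM in combination libraries, against 296.3, 256.4, 335.5 and 289.7 CPM in unstimulated libraries, a log2 change of 0.68 ± 0.11 (adjusted p = 9.02e-06). Cars (0.59 ± 0.10), Nars (0.57 ± 0.09), Yars (0.48 ± 0.06), Gars (0.45 ± 0.08), Tars (0.45 ± 0.08) and Lars (0.40 ± 0.07) followed, and Sars (0.28 ± 0.09) and Mars (0.23 ± 0.06) rose less. Of 11 other cytosolic synthetase genes and parts of their complex, 4 rose, Kars (0.47 ± 0.06), Rars (0.38 ± 0.06), Farsa (0.29 ± 0.07) and Vars (0.26 ± 0.07), and the scaffold gene Aimp1 fell (-0.17 ± 0.06). Of 17 mitochondrial synthetase genes, which serve a separate translation system, 1 rose, Tars2 (0.36 ± 0.07), and 3 fell, Cars2 (-0.41 ± 0.11), Hars2 (-0.28 ± 0.09) and Iars2 (-0.25 ± 0.07), with a median of -0.04. In the same comparison 42% of all tested genes were called, 20.9% higher and 21.2% lower. Counting either direction, the called share was near this for the other cytosolic list and below it for the mitochondrial list. The difference between these lists was not tested.

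**Figure D4:**
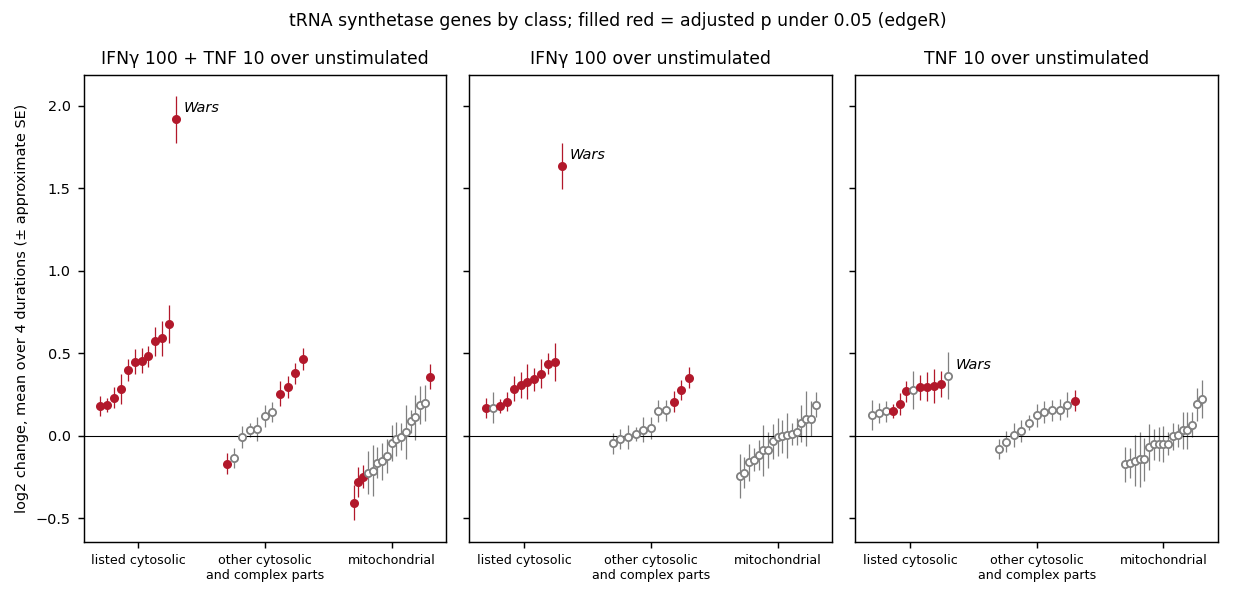
Log2 change of tRNA synthetase genes over unstimulated cells (mean over 4 durations, bars are approximate standard errors), by class, for the combination, IFNγ at 100 ng/ml and TNF at 10 ng/ml. Filled red points passed an adjusted p under 0.05 (edgeR). Wars stands at 1.92 and 1.64 in the panels with IFNγ and at 0.36, not called, with TNF.

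The combination count held at 26 to 36 of 45 when any 1 duration was left out. It fell to 18 when only the combination and unstimulated libraries entered the fit and to 13 with the 2 and 6 h libraries alone. The share of all tested genes called in these settings is not given here, so the falls say nothing particular about the 45. Calls for Aars, Atf4, Cars, Gars, Lars, Nars, Nupr1, Slc3a2, Slc7a1, Tars, Wars and Yars, 12 of the 36, held in all 12 alternative settings.

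Other lists related to the response were counted in the combination beside the 42% of all tested genes called there, 20.9% higher and 21.2% lower, and no list was tested against the other genes. Of 10 tested other ATF4 targets, 5 rose and none fell, among them Atf3, an early stress factor (2.47 ± 0.21), and Trib3, a pseudokinase that restrains the response (1.44 ± 0.22). Of 17 tested genes of the eIF2 machinery, 5 rose, including the double-stranded RNA sensor Eif2ak2 (0.60 ± 0.17) and the eIF2 subunit Eif2s2 (0.45 ± 0.08), and 3 fell, including the endoplasmic reticulum kinase gene Eif2ak3 (-0.37 ± 0.13). Of 14 tested other amino acid and one-carbon enzymes, 4 rose and 4 fell, among them the branched-chain aminotransferase genes Bcat1 at 0.59 ± 0.10 and Bcat2 at -0.63 ± 0.10. Of 10 tested other amino acid transporters, 2 rose and 3 fell, with the neutral amino acid exchanger gene Slc7a8 highest at 1.14 ± 0.14 and the taurine transporter gene Slc6a6 lowest at -0.70 ± 0.07.

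Whether the combination's effect grew with duration was asked of a slope, the change of the log2 ratio per doubling of hours. The slope was positive for 44 of 45 genes and passed the test as an increase for 25, with none decreasing. Among all tested genes 17.4% had a called slope, 8.04% an increasing and 9.37% a decreasing one. The median slope was 0.18 over the 45 genes and 0.00 over all genes. The steepest were Ddit3 (0.73 ± 0.11, adjusted p = 3.31e-05), Chac1 (0.63 ± 0.09, adjusted p = 7.36e-06), Sesn2 (0.49 ± 0.06, adjusted p = 3.27e-07), Slc6a9 (0.45 ± 0.09) and Ppp1r15a (0.45 ± 0.04). Thus the brakes and effectors had called slopes in 6 of 7 genes, the regulators in 4 of 7, the transporters in 4 of 7, the synthetases in 6 of 12 and the synthesis enzymes in 5 of 12. Stc2 had a called slope (0.25 ± 0.08) without a called mean change, since its log2 ratio was -0.30 and -0.62 at 2 and 6 h but 0.44 and 0.43 at 12 and 24 h.

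Wars and Nupr1 had no called slope, and their difference from the other genes was not tested. Wars had log2 ratios of 1.44, 2.56, 1.82 and 1.69 at 2, 6, 12 and 24 h and a slope of 0.02 ± 0.13 (adjusted p = 0.940), and Nupr1 had 1.51, 1.154, 1.69 and 1.62 and a slope of 0.06 ± 0.09 (adjusted p = 0.680). They also had the 2 highest ratios of the list at 2 h, where the next, Yars, was at 0.40, and were singled out after their values were seen. The number of called slopes was 16 without the 24 h libraries, 16 with the 2 compared groups alone and 17 without the 2 h libraries. The 2 and 6 h libraries carry 1 set of index sequences and the 12 and 24 h libraries reuse it, so any difference between these 2 sets of libraries and the difference in duration cannot be told apart, although each ratio is taken within a duration.

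**Figure D5:**
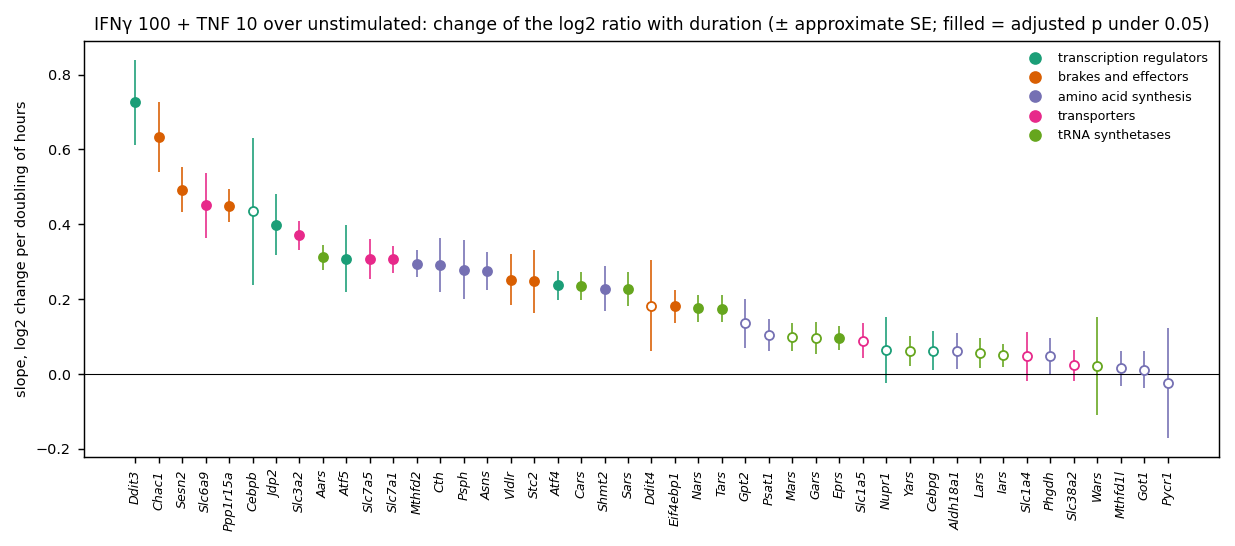
Slope of the log2 ratio of the combination to unstimulated cells per doubling of hours, for each of the 45 genes in order of size, with approximate standard errors as bars and colours by role. Filled points passed an adjusted p under 0.05 (edgeR), 25 of 45, and Wars and Nupr1 lie near 0 at 0.02 and 0.06.

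IFNγ alone at 100 ng/ml raised 26 of the 45 genes over unstimulated cells and lowered none, where 22.1% of all tested genes were called, 12.8% higher and 9.30% lower. The median log2 change was 0.30. Wars again changed most (1.64 ± 0.14, adjusted p = 6.52e-11), with 207.1, 410.7, 284.2 and 255.4 CPM at 2, 6, 12 and 24 h. Nupr1 (0.84 ± 0.16), Ddit3 (0.82 ± 0.29) and Chac1 (0.81 ± 0.26) came next, and 11 of 12 synthetases were called. Ddit3 had 15.1, 17.9, 44.1 and 58.4 CPM and Chac1 had 9.499, 23.3, 35.3 and 42.96 CPM in these libraries, in each case above unstimulated cells at 6, 12 and 24 h. Ddit4 had 22.7, 9.05, 12.6 and 16.3 CPM, below unstimulated cells at every duration, and did not pass (-0.63 ± 0.24, adjusted p = 0.0592). The count was 4 without the 12 h libraries, 12 without the 24 h libraries, 14 without the 6 h libraries and 13 with these 2 groups alone, while DESeq2 gave 29. The fibroblast markers summed to 28.95 to 37.98 CPM with IFNγ at 100 ng/ml, below every unstimulated library (41.7 to 49.5 CPM). The mitochondrial share was 1.23%, 1.14%, 0.750% and 0.693% at 2, 6, 12 and 24 h with IFNγ, against 1.17%, 1.199%, 0.786% and 0.964% in unstimulated libraries, and the part of either in the result was not tested.

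At 1 ng/ml IFNγ raised 19 genes and lowered none (15% of all tested genes called, 9.51% higher and 5.47% lower). Wars was at 1.47 ± 0.14, Ddit3 at 0.93 ± 0.28, Chac1 at 0.81 ± 0.26 and Nupr1 at 0.78 ± 0.16. The difference between the 2 doses was not tested. Without the 12 h libraries 3 genes were called, without the 24 h libraries 5, without the 6 h libraries 10 and without the 2 h libraries 30. The fibroblast markers summed to 27.6 to 37.9 CPM at this dose, and the mitochondrial share at 24 h was 0.627%. At 0.01 ng/ml IFNγ no member was called by edgeR or DESeq2 and none had an unadjusted p under 0.05, and 0% of all tested genes were called. Wars had 100.0, 108.2, 96.1 and 86.1 CPM at this dose, beside 89.8, 100.2, 89.6 and 84.5 CPM in unstimulated libraries.

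TNF alone at 10 ng/ml raised 12 genes and lowered none (17.1% of all tested genes called, 9.83% higher and 7.30% lower), with a median log2 change of 0.22. The called genes were the regulators Nupr1 (0.74 ± 0.16, adjusted p = 0.00101), Atf4 (0.32 ± 0.10) and Cebpg (0.22 ± 0.08), the enzyme Asns (0.38 ± 0.12), the transporter Slc7a1 (0.44 ± 0.13) and 7 synthetases, from 0.15 for Iars to 0.31 for Tars. Atf4 had 352.7, 305.7, 432.6 and 425.6 CPM in these libraries, each above unstimulated cells of the same duration. Wars had 105.8, 122.7, 126.8 and 112.8 CPM, each above its unstimulated partner but below every library with IFNγ at 100 ng/ml, and did not pass (0.36 ± 0.14, adjusted p = 0.0734). Chac1 (0.52 ± 0.26) and Ddit3 (0.49 ± 0.29) did not pass either. The count was 3 without the 12 h libraries, 3 without the 24 h libraries, 6 without the 6 h libraries and 22 without the 2 h libraries, and DESeq2 gave 18. With TNF at 10 ng/ml the fibroblast markers summed to 38.5 to 82.8 CPM, against 41.7 to 49.5 CPM in unstimulated libraries. The endothelial markers, nearly all Cdh5, summed to 5.001 to 18.7 CPM, against 3.82 to 6.74 CPM in unstimulated libraries. The mitochondrial share at 24 h was 0.695% with TNF, against 0.964% in unstimulated cells, and the part of these in the result was not tested.

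At 1 ng/ml TNF no member was called by edgeR or DESeq2, where 2.72% of all tested genes were called (2.01% higher and 0.713% lower), and 1 member, Nupr1, had an unadjusted p under 0.05 (0.37 ± 0.16). At 0.1 ng/ml TNF no member was called by either tool, none had an unadjusted p under 0.05, and 0.0164% of all tested genes were called, 0.00819% in each direction. LTα1β2 and IL-2 likewise gave no called member by either tool and none with an unadjusted p under 0.05, with 0% of all tested genes called for both.

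The combination was also set against each of its parts. Against IFNγ alone, 5 genes were higher, Cebpb (0.91 ± 0.26), Chac1 (0.77 ± 0.23), Nupr1 (0.68 ± 0.14), Jdp2 (0.63 ± 0.15) and Atf4 (0.37 ± 0.10), and 1 was lower, Slc1a4 (-0.29 ± 0.09, adjusted p = 0.0188). Among all tested genes 13.9% were called, 8.49% higher and 5.42% lower. The called share of the genes followed here was near that over all genes, so this count says nothing particular about them. Slc1a4 had 36.6, 25.9, 37.1 and 35.2 CPM in combination libraries, against 36.4, 40.1, 48.5 and 39.1 CPM with IFNγ alone, the 6 h combination library being the lowest of all 48. Wars was not among the 6. Without the 6 h libraries 1 gene was called, without the 12 h libraries 2, without the 24 h libraries 3 and without the 2 h libraries 11.

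Against TNF alone, 14 genes were higher in the combination and none was lower (14% of all tested genes called, 9.12% higher and 4.84% lower), led by Wars (1.56 ± 0.14), Chac1 (1.07 ± 0.24), Ddit3 (0.91 ± 0.27) and Nupr1 (0.78 ± 0.14). Counts without the 6, 12 or 24 h libraries were 3, 3 and 4, and without the 2 h libraries 23. Whether the combination differed from the sum of its parts on the log2 scale was tested directly. No member was called by edgeR or DESeq2 (0.0819% of all tested genes called, 0.0656% above the sum), and 2 had an unadjusted p under 0.05, Yars (-0.22 ± 0.09) and Iars (-0.14 ± 0.06), both below the sum. For Atf4 the values were 0.70 in the combination, 0.33 with IFNγ and 0.32 with TNF, and for Chac1 1.58, 0.81 and 0.52. Both genes lay above the sum by these values, but most members lay below it. The difference from the sum was positive for 17 of the 45 genes (median -0.07) and for 0 of the 12 synthetases (median -0.11). A missing call does not show that the effects add, and these comparisons share the unstimulated libraries.

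IFNα1 raised 4 of the 45 genes and lowered none (9.27% of all tested genes called, 6.18% higher and 3.09% lower). The called share of the 45 was near that over all genes, so this count says nothing particular about them. The 4 called genes were Ddit3 (0.96 ± 0.28, adjusted p = 0.0245), Nupr1 (0.81 ± 0.16, adjusted p = 3.43e-04), Slc6a9 (0.62 ± 0.20, adjusted p = 0.0378) and Got1 (0.29 ± 0.07, adjusted p = 0.00455). Ddit3 had 15.2, 27.1, 47.2 and 56.9 CPM at 2, 6, 12 and 24 h with IFNα1, against 13.6, 15.3, 25.4 and 17.4 CPM in unstimulated libraries, and Nupr1 had 17.96, 19.9, 57.7 and 61.6 CPM, against 14.5, 13.8, 22.99 and 35.6 CPM in unstimulated libraries. Wars had 98.1, 122.5, 101.6 and 94.3 CPM with IFNα1 and was not called. Without the 6 h libraries only Nupr1 passed, without the 12 h libraries only Got1, and without the 2 h libraries 8 genes did. With IFNα1 the fibroblast markers summed to 43.2 to 77.3 CPM and the macrophage markers to 40.1 to 84.4 CPM, against 41.7 to 49.5 CPM and 49.8 to 56.3 CPM in unstimulated libraries, and their part was not tested.

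TGF-β changed 3 of the 45 genes (8.28% of all tested genes called, 5.02% higher and 3.25% lower). The called share of the 45 was not above that over all genes, so this count says nothing particular about them. Among the 3 was Ddit4, which was not called in the combination. It had 40.5, 34.2, 54.3 and 89.3 CPM with TGF-β, against 23.7, 15.3, 27.2 and 30.3 CPM in unstimulated libraries. All 4 TGF-β libraries exceeded every unstimulated one, and the log2 change was 1.14 ± 0.22 (adjusted p = 3.28e-04). Stc2 had 21.7, 20.4, 11.7 and 10.5 CPM with TGF-β, against 36.02, 38.1, 22.03 and 15.2 CPM in unstimulated libraries, lower at every duration (-0.78 ± 0.18, adjusted p = 0.00275), and as a mean over the 12 groups its level also fell between 12 and 24 h. Phgdh was lower too (-0.31 ± 0.09, adjusted p = 0.0271), with 148.7, 168.3, 135.3 and 102.0 CPM with TGF-β, against 177.9, 192.5, 164.0 and 147.6 CPM. Without the 6 h libraries only the Ddit4 call remained. The endothelial markers, nearly all Cdh5, summed to 5.57 to 26.9 CPM with TGF-β, against 3.82 to 6.74 CPM in unstimulated libraries. Their part in the result was not tested.

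Duration was compared as a mean over the 12 groups, and not within each group. At 6 h against 2 h, 8 members were higher and 13 lower (57.2% of all tested genes called, 29.6% higher and 27.5% lower), and at 24 h against 12 h, 5 were higher and 9 lower (32.1% of all tested genes called, 15.2% higher and 16.9% lower). The share of the 45 that was called was thus below that over all genes at 6 h against 2 h and near it at 24 h against 12 h, so these counts say nothing particular about the 45. Culture time and the handling of each harvest cannot be told apart. The glutamine carrier gene Slc38a2 ran from a median of 777 CPM over the 12 libraries at 2 h (684 to 844) through 592 CPM at 6 h (509 to 621) and 561 CPM at 12 h (512 to 605) to 530 CPM at 24 h (449 to 560), so that no library after 2 h reached the 2 h range. Stc2 had medians of 34.3, 31.3, 20.9 and 17.3 CPM at 2, 6, 12 and 24 h, with ranges of 21.7 to 44.2, 20.4 to 38.1, 11.7 to 29.98 and 10.5 to 24.7 CPM. Gpt2 had medians of 35.5, 25.8, 44.4 and 56.7 CPM, with ranges of 30.99 to 39.3, 21.9 to 36.2, 36.8 to 63.0 and 42.4 to 78.3 CPM, lowest at 6 h and highest at 24 h by the median.

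Several members went against most called members of their role at 6 h against 2 h. Among the brakes and effectors, Chac1 (medians 12.6, 15.2, 20.5 and 20.9 CPM, with ranges of 9.49 to 15.03, 10.8 to 41.7, 13.4 to 51.4 and 12.7 to 84.2 CPM) and Ppp1r15a (medians 43.9, 48.3, 51.3 and 44.9 CPM, with ranges of 34.8 to 47.6, 43.7 to 64.0, 44.6 to 78.1 and 38.05 to 105.3 CPM) were higher at 6 h. With the unstimulated, IL-2, LTα1β2, TGF-β, TNF 0.1 ng/ml and IFNγ 0.01 ng/ml groups alone, 17 of the 21 calls at 6 h against 2 h recurred, and those of Chac1, Ppp1r15a, Ddit4 and Mars did not. The Chac1 change there was 0.09 ± 0.09 on the log2 scale (adjusted p = 0.427), against 0.52 ± 0.16 over all 12 groups, and its highest libraries at 6, 12 and 24 h were those of the combination. Among the synthesis enzymes, Shmt2 (medians 233, 261, 304 and 257 CPM, with ranges of 198 to 259, 245 to 302, 248 to 431 and 233 to 389 CPM) and Phgdh (medians 168, 188, 166 and 144 CPM, with ranges of 149 to 196, 168 to 212, 135 to 203 and 102 to 180 CPM) were higher at 6 h. Slc1a5 was the transporter higher at 6 h, with medians of 100.2, 115.3, 110.0 and 96.6 CPM and ranges of 81.9 to 109, 94.5 to 128, 86.1 to 137 and 71.6 to 136 CPM. At 24 h against 12 h, Aldh18a1 rose with Gpt2 against the other called enzymes, with medians of 108.5, 98.3, 123.7 and 137.2 CPM and ranges of 102 to 125, 86.0 to 104, 111 to 163 and 123 to 169 CPM, and Stc2 fell against the other called effectors. The 24 h against 12 h count was 24 with the same 6 groups alone, 11 of them among the 14 called over all groups, and 23 with the libraries of these 2 durations alone.

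In other roles the called genes were evenly split. At 6 h against 2 h Wars and Mars were higher and Cars and Eprs lower among synthetases. Cars had medians of 173.9, 152.1, 221.5 and 197.3 CPM, with ranges of 159 to 187, 141 to 188, 185 to 340 and 172 to 347 CPM. Eprs had medians of 428.8, 393.7, 450.2 and 423.2 CPM, with ranges of 405 to 448, 373 to 428, 421 to 566 and 401 to 529 CPM. Both were thus lowest at 6 h by the median. Mars had medians of 148.4, 163.2, 163.5 and 162.8 CPM, with ranges of 145 to 155, 145 to 172, 148 to 209 and 145 to 196 CPM. Wars had medians of 97.5, 113.6, 102.3 and 96.8 CPM, with ranges of 85.6 to 245, 95.9 to 593, 89.6 to 316 and 84.5 to 273 CPM. The tops of the Wars ranges are combination libraries. Among regulators Cebpg was higher and Nupr1 lower at 6 h, and Nupr1 was higher and Atf5 lower at 24 h against 12 h. Cebpg had medians of 59.3, 68.2, 70.3 and 73.4 CPM, with ranges of 50.1 to 66.9, 59.2 to 81.4, 63.6 to 94.9 and 65.6 to 91.6 CPM. Atf5 had medians of 85.0, 95.6, 123.0 and 87.1 CPM, with ranges of 73.9 to 98.5, 79.7 to 114, 88.6 to 148 and 64.5 to 159 CPM.

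To see which members varied with Atf4, each gene's log2 CPM was centred within durations and correlated with that of Atf4 over the 48 libraries, as a description in which the libraries share stimuli and cell line. The closest were Slc3a2 (Pearson's r 0.96), Cars (0.95), Chac1 (0.95), Aars (0.94), Sesn2 (0.94) and Nars (0.94), whereas the median over all tested genes was -0.06. Wars was looser (0.77), as was Atf5 (0.54), and Cebpb was at 0.38. Ddit4 (-0.50), Slc38a2 (-0.28) and Slc1a4 (-0.12) ran the other way or not with it.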

How the data were processed

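Per the labels, poly(A) RNA was sequenced from stranded libraries of cultured cells, and per the submitters' processing notes reads were aligned with HISAT to GRCm38. The strand setting, the annotation release, the program that counted reads and all versions were not given in the sources used here. The deposited table holds raw read counts per Ensembl gene, 49671 genes by 48 libraries, with no normalization by the authors. A gene was tested where edgeR's filterByExpr kept it (minimum count 10, minimum total 15), and 12203 were.

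Counts were scaled by TMM and fitted with edgeR 4.0.16 (quasi-likelihood, robust, R 4.3.3) with group and duration as factors over all 48 libraries, leaving 33 residual degrees of freedom. The spread is thus shared by all groups, and a group's effect that differs between durations enters it. The slope model added a slope on log2 hours for each group (22 residual degrees of freedom). P-values were adjusted by Benjamini-Hochberg over all genes tested, with a call at an adjusted p under 0.05. Standard errors are the log2 change over the square root of F, an approximation. CPM (scaled to the TMM library size) were computed from the deposited counts and compared only within a gene, and single-duration log2 ratios used a prior count of 2 and have no test. The 45 genes and all other lists were chosen with earlier results of these data known. Libraries were given value by value for the 2 genes of each role with the largest change in the combination, for Atf4, Ddit3 and Asns, and for genes called against most called genes of their role. Jdp2, Cebpb, Slc1a4 and Slc38a2 are given in the same detail outside this rule and were chosen after their values were seen. Any of the 45 could be named. Doses follow the sample titles, since for the lowest TNF and IFNγ doses a separate dose field differs. Duration pairs the libraries of different groups by harvest time and is in the model. Alternatives were DESeq2 1.42.0, its size factors, no filter, no duration term, subsets of durations and of groups, IL-2 libraries as the comparison group, and leaving out each duration.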

Additional observations from a re-analysis of the deposited data

Results flagged for a closer look

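Dixon's ratio of gap to range was taken in 132 sets of 4 libraries of 1 gene and 1 group, over 11 of the genes. In 2 sets a library lay far from the other 3, fewer than the about 1 in 20 that chance gives among replicates. The 4 libraries of a set differ in duration, so an outlying library and a change with duration cannot be told apart. Slc7a1 with IFNγ at 1 ng/ml was low at 24 h, at 250.3 CPM beside 274.3, 277.2 and 273.4 CPM (ratio 0.866). Aars with TNF at 0.1 ng/ml was high at 12 h, at 368.4 CPM beside 281.1, 276.3 and 286.3 CPM (ratio 0.876).

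The effect of the combination over unstimulated cells differed between durations for 25 of the 45 genes, by the edgeR test of the slope per doubling of hours. Each of these 25 slopes was positive. Over all tested genes 17.4% had a called slope, 8.04% increasing and 9.37% decreasing. Among regulators the slopes were 0.73 for Ddit3, 0.40 for Jdp2, 0.31 for Atf5 and 0.24 for Atf4. Among brakes and effectors they were 0.63 for Chac1, 0.49 for Sesn2, 0.45 for Ppp1r15a, 0.25 for Vldlr, 0.25 for Stc2 and 0.18 for Eif4ebp1. Among enzymes they were 0.29 for Mthfd2, 0.29 for Cth, 0.28 for Psph, 0.27 for Asns and 0.23 for Shmt2. Among transporters they were 0.45 for Slc6a9, 0.37 for Slc3a2, 0.31 for Slc7a5 and 0.31 for Slc7a1. Among synthetases they were 0.31 for Aars, 0.23 for Cars, 0.23 for Sars, 0.18 for Nars, 0.18 for Tars and 0.097 for Eprs.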

How the results depend on the processing

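Of 184 recomputed counts of called genes over 17 comparisons, 125 stayed within 1.5 times. The 125 include counts that were 0 in the main fit and 0 again. These belong to IFNγ at 0.01 ng/ml, TNF at 1 and 0.1 ng/ml, LTα1β2, IL-2 and the test against the sum of the parts. Such counts had no call to lose, so the 125 overstate how well the other counts held. Of 1820 recomputed values of single genes, 1281 kept direction and call, 537 lost the call and 2 changed sign. The 2 were Slc6a9 (-0.000395) and Sars (-0.0261) in the combination over unstimulated cells with the 2 and 6 h libraries alone. With those libraries alone the counts were 13 for the combination, 2 for IFNγ at 100 ng/ml, 1 at 1 ng/ml, 0 for TNF at 10 ng/ml, 0 for IFNα1, 1 for TGF-β, 0 for the combination over IFNγ and 2 over TNF. With the 12 and 24 h libraries alone they were 35 for IFNγ at 1 ng/ml, 25 for TNF at 10 ng/ml, 3 at 1 ng/ml, 12 for IFNα1, 5 for TGF-β, 15 for the combination over IFNγ and 30 over TNF. With the compared groups alone they were 18 for the combination, 13 for IFNγ at 100 ng/ml, 5 for TNF at 1 ng/ml, 6 for TGF-β, 7 for the combination over TNF and 16 for the slope. With no duration term, that is no replicate block pairing the groups by duration, they were 3 for IFNγ at 100 ng/ml, 2 at 1 ng/ml, 2 for TNF at 10 ng/ml, 0 for IFNα1, 0 for TGF-β, 1 for the combination over IFNγ, 2 over TNF and 24, within 1.5 times, for the combination over unstimulated cells. With no filter on low counts they were 16 for IFNγ at 100 ng/ml, 10 at 1 ng/ml, 7 for TNF at 10 ng/ml and 2 for IFNα1, and with IL-2 libraries in place of unstimulated ones 7 for TNF at 10 ng/ml. For 24 h against 12 h they were 24 with 6 groups alone and 23 with these 2 durations alone. The share of all tested genes called in each of these settings is not given here. These counts therefore say nothing particular about the genes followed here.

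Leaving out each duration in turn gave 26 to 36 for the combination, 4 to 33 for IFNγ at 100 ng/ml, 3 to 30 at 1 ng/ml, 3 to 22 for TNF at 10 ng/ml, 1 to 8 for IFNα1, 1 to 4 for TGF-β, 1 to 11 for the combination over IFNγ, 3 to 23 over TNF and 16 to 24 for the slope. It gave 0 throughout for IFNγ at 0.01 ng/ml, TNF at 1 and 0.1 ng/ml, LTα1β2, IL-2 and the test against the sum of the parts. With 1 library per group and duration, spread between cultures at one duration was not measured. The share of all tested genes called is not given for these settings either, and the cause of these differences was not tested.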
